A study of Homo sapiens with 4 samples.

Results

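The protein part of the cytosolic ribosome is encoded by a large set of genes that were read here as 1 group in U937 cells, an established human myeloid line from a histiocytic lymphoma, cultured without or with 10 nM phorbol 12-myristate 13-acetate (PMA) for 72 h. The group held every row of the deposited count table whose symbol is RPL or RPS with a number and at most a final A or X, or RPLP0, RPLP1, RPLP2 or RPSA. This gave 77 genes of 60662 rows, 46 of the large and 31 of the small subunit, and left out pseudogenes, FAU and tissue-specific paralogs. There were 4 poly(A)-selected RNA libraries, 1 untreated and 1 PMA library from each of 2 lots of U937 cells, and the labels give differentiation into macrophage-like cells as the purpose of the treatment. PMA, a phorbol ester, activates protein kinase C. The labels name no other agent and no genetic change, and they do not say what a lot is beyond its number. The line is a tumour line and stands in for monocytes only as such.

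The cytosolic ribosome is built from a small subunit, which holds the mRNA and reads the code, and a large subunit, which joins amino acids. Each ribosome takes up its proteins in roughly equal numbers, so their genes are commonly expressed together and at high levels, and dividing cells spend much of their transcription on them. In vertebrates the mRNAs of these genes begin with a terminal oligopyrimidine tract (TOP), a C followed by a run of C and T at the very 5′ end, through which their translation and stability respond to growth signals by way of the kinase mTOR and the protein LARP1. Transcription factors such as MYC are also known to act on them.

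The start of these genes is shown first because the TOP tract lies there. RefSeq promoter windows (GRCh38.p14) were used for 62 of the 77 genes. The windows used did not cover every chromosome, so a gene left out here may still have a RefSeq window. Below are the 15 bases before and the 15 bases after the annotated transcription start, 5′ to 3′ on the gene's strand, for members that fell with PMA and, last, for 4 that had the smallest changes. Capitals mark the longest run of at least 6 C or T that overlaps bases -10 to +10, as far as it lies within the printed bases.
RPSA (chr3:39406705-39406734, + strand): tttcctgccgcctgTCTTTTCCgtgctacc
RPL3 (chr22:39319609-39319638, - strand): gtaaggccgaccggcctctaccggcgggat
RPLP0 (chr12:120201097-120201126, - strand): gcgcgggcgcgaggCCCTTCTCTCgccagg
RPS3 (chr11:75399503-75399532, + strand): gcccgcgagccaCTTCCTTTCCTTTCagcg
RPS19 (chr19:41860240-41860269, + strand): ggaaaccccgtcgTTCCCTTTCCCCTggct
RPS6 (chr9:19380222-19380251, - strand): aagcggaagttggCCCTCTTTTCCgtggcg
RPL4 (chr15:66504841-66504870, - strand): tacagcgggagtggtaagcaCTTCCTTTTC
RPS27 (chr1:153990747-153990776, + strand): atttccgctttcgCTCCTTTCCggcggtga
RPL39 (chrX:119791616-119791645, - strand): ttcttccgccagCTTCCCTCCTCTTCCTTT
RPL28 (chr19:55385917-55385946, + strand): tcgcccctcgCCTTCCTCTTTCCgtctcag
RPS9 (chr19:54200843-54200872, + strand): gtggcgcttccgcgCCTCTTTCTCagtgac

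Such a run was present in 53 of the 62 windows (85.5%), against 31.1% of the 35116 RefSeq windows used. Each of the 62 genes was counted once, by its first listed window, while a gene may count more than once among the 35116. The annotated first base was C or T in 79.0% of the ribosomal protein windows and in 21.9% of all windows. The letters CCTTT or TCTTT, read on the coding strand within 25 bases of the annotated start, lay in 42 of 62 windows (67.7%) against 11.3% of all, and they overlap the C and T run by their make-up. CCGGAAG, the core letters of ETS factor sites, stood on either strand of the 300 bases of 21 windows (33.9%, against 10.3% of all). CACGTG, the letters of the E-box to which MYC binds, stood in 3 windows (4.84%, against 7.26%), and TATAA on the coding strand at 40 to 21 bases before the start in 6 (9.68%, against 3.77%). In RPL3 the windowed letters held no such run, which says only that the run is not at this annotated start.

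**Figure D1:**
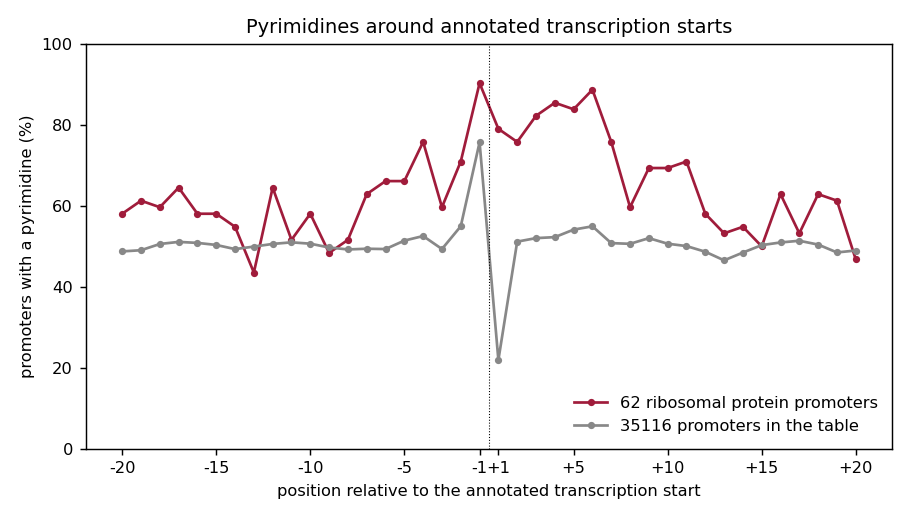
Share of promoters with a pyrimidine (y axis, %) at each position from 20 before to 20 after the annotated transcription start (x axis). The curves are for 62 ribosomal protein genes (the first listed window of each) and for the 35116 RefSeq windows used. The curve of the ribosomal protein genes stays above 75% from position +1 to +7, while the curve of all windows falls to 21.9% at +1.

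Ribosomal protein mRNAs took up 9.69% (lot 1) and 10.1% (lot 2) of all counts before treatment, and 3.36% and 3.48% after PMA. Both PMA libraries lay far below both untreated libraries. The means were 9.92% ± 0.319 and 3.42% ± 0.0823 (SD, n = 2 libraries per group), a ratio of 2.88 in lot 1 and 2.91 in lot 2. Levels of single genes below are CPM, counts relative to library size, scaled between libraries by TMM factors. On that scale the summed level was 84202 and 97108 CPM without PMA and 36882 and 38251 CPM after PMA, and the ratio of means was 2.41. These levels are relative to the counts of each library. In bulk libraries, fewer cells with these mRNAs, less of them per cell and more of other mRNAs cannot be told apart.

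**Figure D2:**
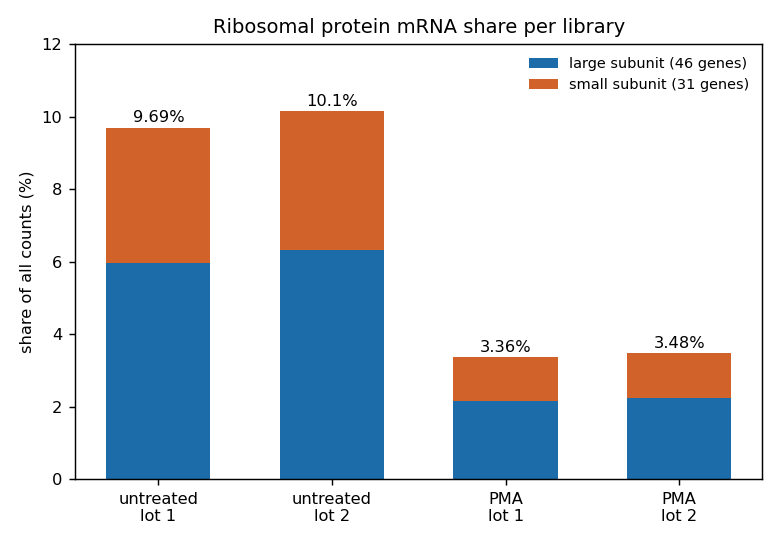
Share of all counts in each of the 4 libraries (y axis, %) from the 46 large subunit genes and the 31 small subunit genes, stacked, with their sum above each bar. The sum is 9.69% and 10.1% for the untreated bars and 3.36% and 3.48% for the PMA bars.

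All 77 genes passed the filter on low counts, and all had a negative log2 fold change (PMA against untreated), from -2.26 for RPS2 to -0.40 for RPS27. The median was -1.26, or 2.40-fold lower, while the median of all 16451 genes tested was 0.00 and that of the 2158 genes at 100 CPM or more on average was 0.24. In 76 genes both lots moved down (35.9% of all genes tested did), and in 75 both PMA libraries lay below both untreated libraries (29.4% of all genes tested). The log2 fold change was below -1 in 77.9% of the members and in 22.9% of all genes tested. With edgeR (quasi-likelihood test, p-values adjusted by Benjamini-Hochberg over all genes), 13 of the 77 fell (16.9%) and 0 rose, against 2.02% of all genes called lower and 4.29% called higher. An unadjusted p under 0.05 was reached by 68 of the 77, against 12.5% of all genes that were lower at that p. DESeq2 called 63 of the 77 lower (10.4% of all genes with an adjusted p) and limma-voom 41 (3.87%), and neither called any of them higher (13.2% and 6.98% of all genes).

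With the lot as a block, which pairs the libraries, edgeR called 3 of the 77 lower, RPS2, RPSA and RPL3 (1.48% of all genes were lower and 3.59% higher), and the other 10 had adjusted p-values from 0.0508 to 0.0667. Without the PMA library of lot 1 the median log2 fold change of the 77 genes was -1.30, and without that of lot 2 it was -1.28. Without the untreated library of lot 1 it was -1.45, and without that of lot 2 it was -1.14. The medians of all genes tested were -0.17, -0.13, 0.13 and -0.004 in the same order. In these 4 fits 1 arm holds a single library, which is assumed to vary like the other group, so the spread comes from that group alone.

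**Figure D3:**
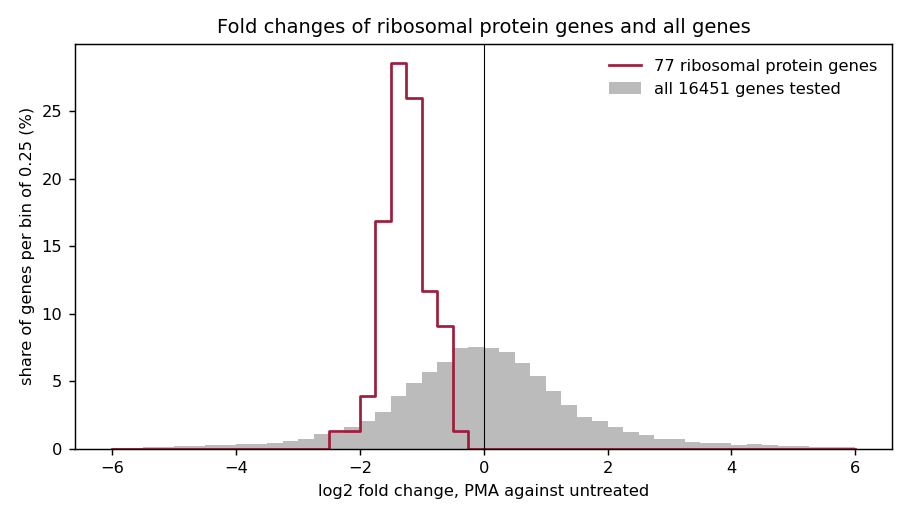
Distribution of log2 fold changes of PMA against untreated cells (x axis), as the share of genes in each bin of 0.25 (y axis, %), for the 77 ribosomal protein genes (line) and all 16451 genes tested (grey bars, cropped at -6 and 6). The ribosomal protein genes form a narrow peak with its median at -1.26, and all of them lie below 0.

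Among small subunit genes, 7 of 31 fell (22.6%). RPS2 (ENSG00000140988.16), a protein at the channel through which mRNA enters the ribosome, was at 2001 and 2980 CPM untreated, then at 506 and 534 CPM after PMA. It fell by 2.26 ± 0.33 on the log2 scale (± standard error throughout, adjusted p = 0.0320 by edgeR). RPSA (ENSG00000168028.14), a protein of the small subunit's platform also known as the laminin receptor precursor, was at 2598 and 2270 CPM untreated, then at 582 and 596 CPM after PMA, and fell by 2.05 ± 0.28 (adjusted p = 0.0281). For both genes the lowest untreated library was over 3 times the highest PMA library.

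RPS3, which forms part of the mRNA entry channel beside RPS2 and also takes part in DNA repair, was at 1186 and 1336 CPM untreated, then at 443 and 348 CPM after PMA (-1.67 ± 0.30, adjusted p = 0.0448). RPS19, the gene most often mutated in Diamond-Blackfan anaemia, was at 1285 and 1660 CPM against 498 and 448 CPM (-1.64 ± 0.30, adjusted p = 0.0467). In each of these genes the groups stood apart, but the adjusted p was just under the threshold. RPS6, the substrate of the S6 kinases by which growth signalling is often read, was at 1488 and 1431 CPM against 563 and 500.5 CPM (-1.46 ± 0.27, adjusted p = 0.0496). RPS23, which sits at the decoding centre, was at 450 and 455 CPM against 166 and 155 CPM (-1.50 ± 0.28, adjusted p = 0.0497). The untreated libraries agree closely for these last genes, and the change is nearly the same in both lots.

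Among large subunit genes, 6 of 46 fell (13.0%). RPL3 (ENSG00000100316.16), a protein next to the peptidyl transferase centre, was at 2248 and 2230 CPM untreated, then at 631 and 632 CPM after PMA, and fell by 1.83 ± 0.27 (adjusted p = 0.0320). Its replicates nearly coincided within each group. RPLP0, the base of the stalk that recruits elongation factors, was at 2943 and 2727 CPM against 881 and 953 CPM (-1.63 ± 0.27, adjusted p = 0.0384). RPL5, which binds 5S rRNA and with RPL11 restrains the p53 ligase MDM2 when ribosome assembly is disturbed, was at 915 and 980 CPM against 341 and 313 CPM (-1.54 ± 0.28, adjusted p = 0.0462). In each of these genes both PMA libraries lay well below both untreated libraries.

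RPL4, whose long loop reaches into the peptide exit tunnel, was at 2766 and 2423 CPM against 945 and 955 CPM (-1.45 ± 0.27, adjusted p = 0.0480). RPL19, at the rim of the tunnel exit, was at 1482 and 1441 CPM against 556 and 509.5 CPM (-1.46 ± 0.27, adjusted p = 0.0486). The 2 genes moved by almost the same amount from different starting levels.

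**Figure D4:**
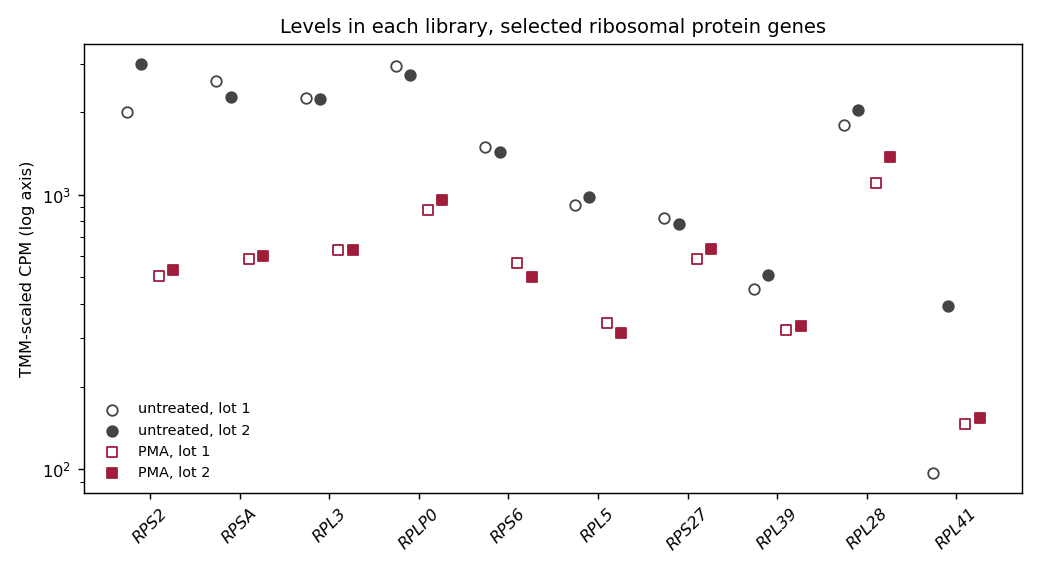
TMM-scaled CPM (y axis, log scale) in each of the 4 libraries for 10 ribosomal protein genes (x axis), 6 that fell with PMA on the left and 4 that did not pass the test on the right. The PMA squares lie below the untreated circles in all genes shown except RPL41, whose untreated lot 1 library (97.3 CPM) is below both PMA libraries.

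The other 64 genes did not pass edgeR's test, with log2 fold changes from -1.77 to -0.40 and adjusted p-values from 0.0501 to 0.570. Many were close to the threshold, since 40 of them had an adjusted p under 0.10. RPS14, at the mRNA exit and the gene whose loss marks the 5q- syndrome, had the smallest adjusted p of them (0.0501), with 1544 and 1991 CPM against 625 and 584 CPM. RPL21 (-1.77 ± 0.40) and RPL35 (-1.73 ± 0.45) had changes as large as those of genes that passed, but their untreated libraries lay apart, at 224 and 398 CPM for RPL21 and at 724 and 1538 CPM for RPL35. Lot spread was also wide in RPS27A, which is made as a fusion with ubiquitin, at 565 and 744 CPM against 309 and 160 CPM (-1.48 ± 0.43, adjusted p = 0.102). RPL22, an RNA-binding protein not needed for translation itself, was at 356 and 453 CPM against 153 and 158 CPM (-1.38 ± 0.30, adjusted p = 0.0629), and RPL36A at 394 and 487 CPM against 172 and 197 CPM (-1.26 ± 0.30, adjusted p = 0.0734). The groups of both stood apart.

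A small set of genes changed least. The log2 fold change was above -1 in 17 genes, 12 of the large and 5 of the small subunit: RPL34, RPL6, RPL24, RPL37, RPL17, RPL31, RPL10, RPL41, RPL15, RPL23, RPL28, RPL39, RPS15A, RPS29, RPS20, RPS9 and RPS27. RPS27, a zinc finger protein of the small subunit, was at 821 and 784 CPM untreated, then at 582 and 632 CPM after PMA (-0.40 ± 0.27, adjusted p = 0.420). RPL39, the very small protein that lines the exit tunnel, was at 454 and 511 CPM against 323 and 332 CPM (-0.56 ± 0.28, adjusted p = 0.280). RPL28 was at 1787 and 2037 CPM against 1106 and 1370 CPM (-0.63 ± 0.28, adjusted p = 0.242). In all 3 genes the PMA libraries were still below the untreated libraries, and DESeq2 gave adjusted p-values of 0.428 for RPS27, 0.244 for RPL39 and 0.202 for RPL28.

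RPL23, another protein known to bind MDM2, was at 635 and 893 CPM against 470 and 497 CPM (-0.66 ± 0.31, adjusted p = 0.259). RPS20 was at 1128 and 1132 CPM against 665 and 756 CPM (-0.67 ± 0.27, adjusted p = 0.199). RPL15 was at 1557 and 1623 CPM against 1114 and 845 CPM (-0.70 ± 0.29, adjusted p = 0.208), and RPL10, near the peptidyl transferase centre, at 2868 and 3041 CPM against 1670 and 1753 CPM (-0.79 ± 0.26, adjusted p = 0.130). These genes were lower with PMA in both lots, by less than the median member.

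RPL41 and RPS9 stood apart in another way. RPL41 encodes the shortest ribosomal protein and was at 97.3 and 393 CPM untreated, then at 147 and 153 CPM after PMA, from 6149, 16960, 4781 and 7095 counts. Its groups overlapped, and its sign was positive in lot 1 (0.59) and negative in lot 2 (-1.36), for a fitted change of -0.71 ± 0.68 (adjusted p = 0.570). Without the untreated library of lot 1 the change was -1.45, and without that of lot 2 it was 0.62, each from a single untreated library. RPS9, a protein of the mRNA entry channel, was at 18.7 and 28.6 CPM against 12.6 and 20.4 CPM, and its groups overlapped too (-0.52 ± 0.47, adjusted p = 0.556). Per length, RPS9 was at 33.4 CPM per kb of transcript without PMA, against a median of 1456 CPM per kb over the small subunit genes. Whether reads of RPS9 were assigned to other rows was not tested.

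On the same scale of CPM per kb, using the shortest annotated transcript that encodes the main protein form, RPS16 was at 3679 and 5626 CPM per kb without PMA and at 1516 and 1724 CPM per kb after it. RPS14 (2714 and 3499), RPL13 (2362 and 3094) and RPLP1 (2286 and 3323) had lower means in untreated CPM per kb, with ranges that overlap each other. The median untreated level was 1204 CPM per kb for the large subunit and 1456 CPM per kb for the small subunit genes. For some genes the transcript used was long, as in RPL37 (7686 nt), RPL27A (4916 nt), RPL37A (3647 nt) and RPS23 (3437 nt). Whether the cells express these transcripts was not tested, and the levels per kb of such genes depend on it.

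The subunits moved by nearly the same amount. The median log2 fold change was -1.24 for the large subunit and -1.29 for the small subunit (this difference was not tested). Summed counts of the large subunit genes were 1.60 and 1.65 times those of the small subunit genes without PMA, and 1.80 and 1.79 times with it, so the PMA libraries lay above the untreated libraries. As a share of all ribosomal protein counts, the large subunit took 61.5% and 62.2% without PMA and 64.3% and 64.1% with PMA. For single genes, the share in all ribosomal protein counts moved both ways in each subunit. In 12 large and 7 small subunit genes both PMA libraries lay above both untreated libraries. In 7 large and 7 small subunit genes both lay below. The share of RPSA was 3.09% and 2.34% without PMA and 1.58% and 1.56% with it, and that of RPS2 was 2.38% and 3.07% against 1.37% and 1.39%. In contrast, RPS27 of the same subunit took 0.975% and 0.807% against 1.58% and 1.65%. RPL10 took 3.41% and 3.13% of the ribosomal protein counts without PMA and 4.53% and 4.58% with it, and RPL15 1.85% and 1.67% against 3.02% and 2.21%. The share of RPL3, also of the large subunit, went down, from 2.67% and 2.30% to 1.71% and 1.65%.

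By lot, the median log2 change of the members was -1.19 in lot 1 and -1.34 in lot 2, where the medians of all genes tested were -0.04 and 0.06. The change was more negative in lot 2 in 55 genes and in lot 1 in 22. Across the 77 genes the changes in the 2 lots, which share no library, correlated at r = 0.53 (Spearman's rho = 0.55), or 0.61 and 0.56 without RPL41. The points share their libraries within a lot, so this is a description. The widest gaps between the lots after RPL41 were in RPS27A (-0.87 in lot 1 and -2.21 in lot 2), RPS12 (-0.98 and -2.09) and RPS26 (-0.74 and -1.82). The share of counts from mitochondrial genes also differed by lot, with 3.66% untreated and 2.81% PMA in lot 1 but 8.58% untreated and 5.99% PMA in lot 2, and its part in these gaps was not tested.

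**Figure D5:**
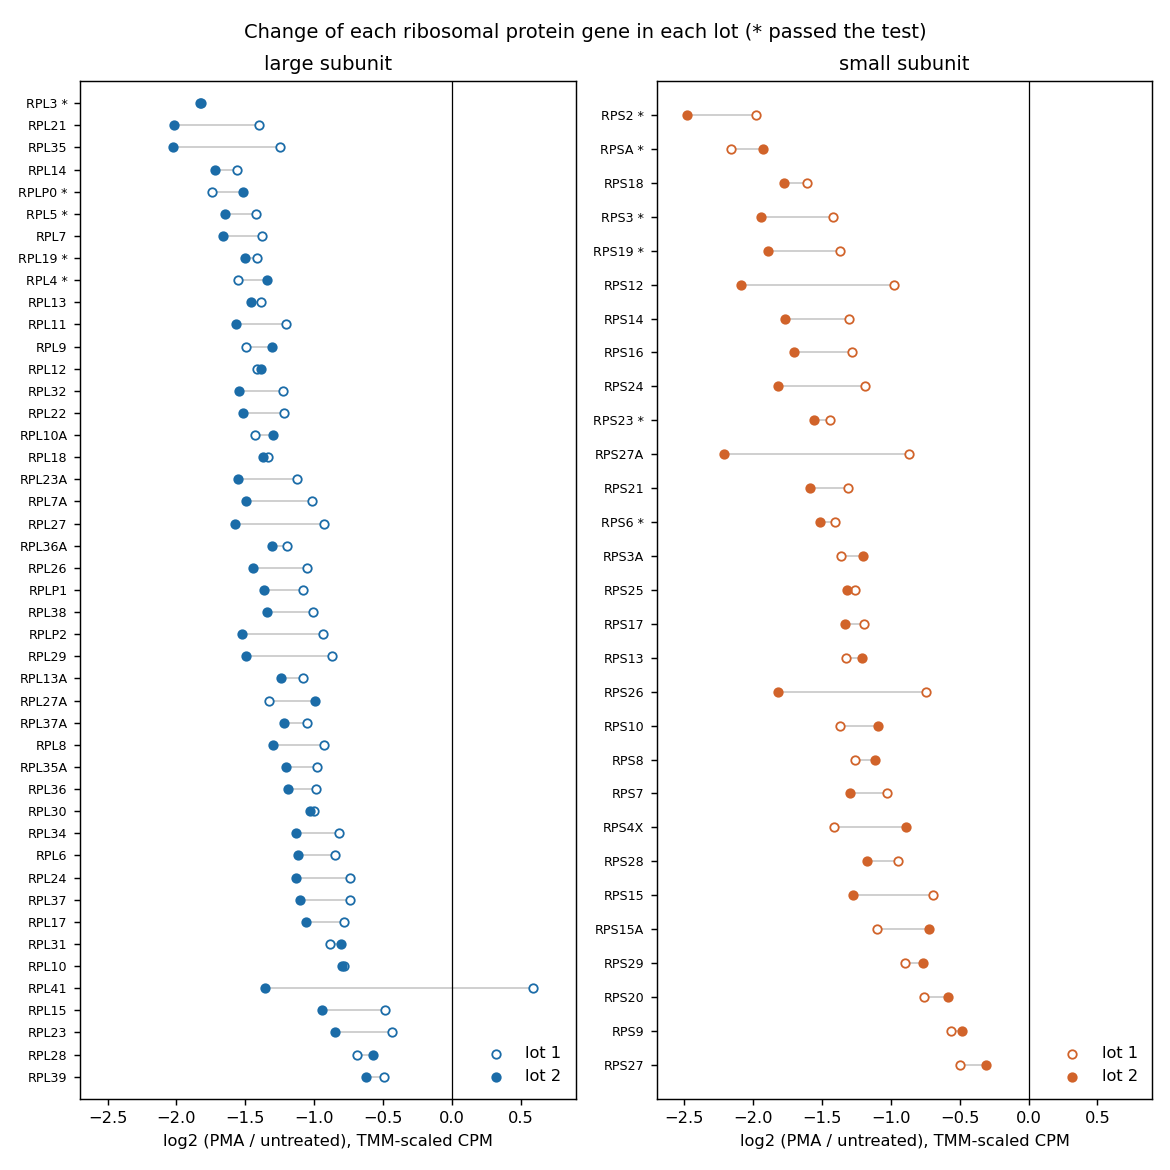
Log2 ratio of PMA to untreated TMM-scaled CPM (x axis) in lot 1 (open circles) and lot 2 (filled circles) for 45 large subunit genes (left) and 29 small subunit genes (right), ordered by the fitted fold change, with an asterisk on the 11 genes shown that passed edgeR's test. Every circle drawn lies below 0 except that of RPL41 in lot 1 (0.59).

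By place in the ribosome, the 4 stalk genes RPLP0, RPLP1, RPLP2 and RPL12 had a median log2 fold change of -1.32, and 1 of them, RPLP0, fell. RPLP1, at 2736 and 3978 CPM against 1296 and 1549 CPM, and RPLP2, at 746 and 818 CPM against 390 and 285 CPM, did not pass (adjusted p = 0.0829 and 0.0822). Of the 5S RNP genes RPL5 fell, while RPL11 was at 896 and 1553 CPM against 390 and 523 CPM (-1.42 ± 0.39, adjusted p = 0.0937). Among the 3 mRNA entry genes RPS2 and RPS3 fell and RPS9 did not pass. In the head of the small subunit 3 of 14 genes fell, RPS3 and RPS19 among them, with a median of -1.38 over the list, and at the rim of the exit tunnel 1 of 8 (RPL19), with a median of -1.23. Of 18 genes mutated in Diamond-Blackfan anaemia, an inherited red cell aplasia, RPL5 and RPS19 fell, and the median was -1.24. The median was -1.67 over the mRNA entry genes, -1.48 over the 5S RNP genes and -1.40 over 4 genes at the mRNA exit, against -1.26 over the 77 genes together. By edgeR 16.9% of the 77 genes and 2.02% of all genes tested fell. DESeq2 called lower 4 of 4 stalk genes, 2 of 2 genes of the 5S RNP and 2 of 3 mRNA entry genes. It also called 10 of 14 head genes, 7 of 8 rim genes and 14 of 18 Diamond-Blackfan genes. Among the 77 genes DESeq2 called 63, and 10.4% of all genes with an adjusted p. These lists are short, and their differences from the other members were not tested.

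Gene properties were set beside the fold change. Across the 77 genes the fold change correlated with log2 transcript length at r = -0.14 (rho = -0.19). The lengths were those used for CPM per kb, with the same limit. The fold change correlated with the GC content of the longest transcript at r = -0.10 (rho = -0.09) and with the log2 untreated level at r = -0.31 (rho = -0.22). The untreated level is itself part of the fold change, and all points come from the same 4 libraries. The median log2 fold change was -1.26 in the 53 genes with a C and T run at the annotated start and -1.29 in the 9 without, and -1.29 in the 21 with CCGGAAG and -1.26 in the 41 without. It was -1.01 in the 6 genes with TATAA and -1.29 in the 56 without, and -1.16 in the 3 with CACGTG and -1.29 in the 59 without. By CCTTT or TCTTT it was -1.28 in the 42 genes with these letters and -1.32 in the 20 without. None of these differences was tested.

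Some genes outside the 77 also encode proteins of the ribosome. FAU, whose product carries small subunit protein eS30, was at 243 and 530 CPM against 163 and 178 CPM (-1.18 ± 0.45, adjusted p = 0.180). RACK1, the signalling scaffold on the small subunit head, was at 2332 and 1983 CPM against 886 and 1003 CPM (-1.19 ± 0.28, adjusted p = 0.0700, and 0.00207 by DESeq2, which calls it). Neither passed edgeR's test, and in both the PMA libraries lay below the untreated ones.

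Of 8 paralogs of ribosomal protein genes, 7 were tested, 0 passed edgeR's test, 1 had an unadjusted p under 0.05, and DESeq2 and limma-voom called 1 each. RPL39L, the germ cell paralog of RPL39 that is also expressed in tumours, was at 12.1 and 10.7 CPM untreated, then at 1.81 and 1.32 CPM after PMA (-2.87 ± 0.56, adjusted p = 0.0519). DESeq2 gave it an adjusted p of 4.68e-05 and limma-voom 0.0382, and both call it lower. RPS27L, a p53 target and paralog of RPS27, was at 45.5 and 85.0 CPM against 83.8 and 99.1 CPM (0.49 ± 0.42, adjusted p = 0.529; -0.12 with length and GC offsets). RPL22L1 was at 17.2 and 13.9 CPM against 6.97 and 9.34 CPM (-0.93 ± 0.46, adjusted p = 0.279). RPL3L, a muscle paralog, had 17 counts in the untreated library of lot 1 and 0 in the other 3 and was not tested.

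Other transcripts are also known to carry a TOP tract. Of 15 listed, 2 fell (13.3%) and 0 rose by edgeR, against 2.02% and 4.29% of all genes tested. Their median was -1.13, and 12 had both PMA libraries below both untreated ones (29.4% of all genes tested). The elongation factor subunit EEF1B2 was at 286 and 237 CPM against 80.9 and 81.7 CPM (-1.69 ± 0.30, adjusted p = 0.0446; blocked by lot 0.0599). The RNA-binding protein HNRNPA1 was at 403 and 482 CPM against 115 and 95.2 CPM (-2.07 ± 0.31, adjusted p = 0.0341). The translocase EEF2, at 7231 and 5092 CPM against 2800 and 2827 CPM, did not pass (adjusted p = 0.0850). The main elongation factor EEF1A1 was at 8225 and 5734 CPM against 6063 and 4878 CPM (-0.35 ± 0.31, adjusted p = 0.536), with overlapping groups. TPT1, which encodes the translationally controlled tumour protein, was at 1499 and 1370 CPM untreated, then at 2084 and 2352 CPM after PMA (0.63 ± 0.27, adjusted p = 0.215).

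Ribosomal protein genes have many processed pseudogenes that can draw their reads. The table held 1132 pseudogene rows of these genes, 893 with a count in some library, and together they had 7.16 and 7.81 counts per 100 counts of the 77 genes without PMA and 6.80 and 8.60 with PMA. RPL21 had the most relative to its own counts (mean over the libraries), with 53.2 and 36.3 pseudogene counts per 100 of its own without PMA and 39.4 and 70.2 with it. Adding them to their parent genes changed no log2 fold change by more than 0.19 (RPS18). With them 17 genes were lower in place of 13, where 2.41% and 2.02% of all genes tested were lower. RPS10 also has a read-through row, RPS10-NUDT3, which held 50163, 7889, 9152 and 166 counts (untreated 1 and 2, PMA 1 and 2). Whether that row holds reads of RPS10 was not tested. RPS10 alone was at 1136 and 1352 CPM against 439 and 633 CPM (-1.21 ± 0.33), and together with that row at 1930 and 1535 CPM against 720 and 636 CPM (-1.35 ± 0.29, adjusted p = 0.0612).

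In the authors' deposited table, 2 of the 77 genes were called, RPS2 (log2 ratio -2.27, q = 0.00835) and RPSA (-2.06, q = 0.0194). That is a share near the background of 2.72% of the genes tested here that this table calls lower. The authors' deposited table gives RPL3 a log2 ratio of -1.84 with q = 0.0547, and a median ratio of -1.27 over the 77 genes.

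Across the whole series, total counts were 35739833 to 54915928 per library. The myeloid list (SPI1, CD33, PTPRC, TYROBP, FCER1G, CSF2RA, CEBPA and LYZ) was detected in full, with a summed level of 786 to 1641 CPM without PMA and 3096 to 3837 CPM after PMA. Most of that gap came from FCER1G (41.2 and 137 CPM untreated, 1360 and 1783 CPM after PMA) and TYROBP (6.82 and 55.9 CPM, then 625 and 1052 CPM). CD33, CEBPA, PTPRC and LYZ had overlapping groups, LYZ with 136 and 905 CPM untreated and 211 and 126 CPM after PMA. All 4 T cell markers, all 4 red cell markers and all 4 fibroblast markers were at 0 in every library, and the 4 epithelial markers summed to at most 0.0216 CPM. Of 4 B cell markers MS4A1 was at 0, while the list summed to 17.6 to 26.6 CPM without PMA and 11.3 to 13.5 CPM after PMA. The part of these B cell transcripts in the results was not tested.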

How the data were processed

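RNA of 4 libraries of U937 cells, 2 untreated and 2 with PMA, was sequenced on an Ion Proton instrument after poly(A) enrichment, per the labels' protocols and the series' design text. HISAT2 2.1.0 and StringTie 2.1.1 appear, without roles, per the submitters' processing notes. No source used here gives the genome build, annotation, counting method or strand setting. The authors deposited estimated counts per gene, which are whole numbers, so rounding changed none. Their second deposited table gives a signal (the count times 1 factor per library), log2 ratios and levels, and p-values and q-values, from a test that no source used here names.

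Groups came from the titles. Libraries were compared with edgeR 4.0.16 (TMM factors, filterByExpr, quasi-likelihood test, Benjamini-Hochberg at 0.05 over 16451 genes) in R 4.3.3. The test and the offsets were tried on simulated counts drawn without a lot effect, which cannot show how the test handles libraries paired by lot. A standard error is the log2 fold change divided by the root of F. Alternatives used DESeq2 1.42.0, limma-voom (limma 3.58.1), other factors, filters and library sizes, the lot as a block, length and GC offsets, added pseudogene counts and leaving out each library. Adding read-through counts was chosen after seeing the data. Titles name a lot shared by an untreated and a PMA library, which pairs them. Their deviations from group means correlated, within a lot, at 0.154 over all genes and 0.387 over the 77. Nothing says that replicates were cultured apart, so p-values reflect only how far these libraries differ, possibly for technical reasons. Lengths came from GENCODE 29 (58489 identifiers matched, 41271 in the same version), promoters from RefSeq.

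The members and lists were chosen with earlier results of these data known. Genes given in full were those past the threshold, the 3 largest and 3 smallest changes and 3 highest levels per kb in each subunit, genes whose lots differ in sign, and a set fixed by role. Of the myeloid, T cell, B cell, red cell, epithelial and fibroblast markers, summed levels are given. A few genes that the naming rule would include are counted but not reported here.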

Additional observations from a re-analysis of the deposited data

Results flagged for a closer look

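RPL41 moved in opposite directions in the lots, with a log2 change of 0.59 in lot 1 and -1.36 in lot 2. The untreated libraries (97.3 and 393 CPM) lay farther apart than the PMA libraries (147 and 153 CPM). Among the paralogs, the log2 change was 0.15 and -0.65 for RPL7L1, 0.35 and -0.86 for RPL26L1 and 0.27 and -0.81 for RPL36AL in lots 1 and 2. The difference between the lots was not tested for any of the 4 genes, since each lot has 1 library per group.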

How the results depend on the processing

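The log2 fold changes of all 77 genes were negative in each of the 16 alternatives but 1, where RPL41 was positive. How many genes passed the test depended on the setting. The main fit gave 13 genes lower (6 large, 7 small), and 2.02% of all genes tested. The percentages that follow are the shares of all genes lower in each setting. RLE factors gave 4 (2 and 2, 1.93%) and no filter 4 (1 and 3, 1.38%). At least 5 CPM in 2 libraries gave 35 (19 and 16, 6.65%), and length and GC offsets 30 (15 and 15, 6.2%). DESeq2 gave 63 (38 and 25, 10.4%) and limma-voom 41 (23 and 18, 3.87%). Library sizes without the ribosomal protein genes gave 9 with 4 small (2.08%). With the lot as a replicate block 3 passed (1 and 2, 1.48%), and 4 (1 and 3, 1.91%) with the block and the offsets together. Beside those 10 genes the block alone ended the call of EEF1B2 and changed no other call among the 61 genes and paralogs followed. Leaving out each library gave 0 to 53 (0 to 34 large, 0 to 19 small). Those fits take the spread from the group that keeps 2 libraries. Against 332 genes lower and 705 higher in all, 5 CPM gave 721 lower, DESeq2 1684 and 2127, limma-voom 636 and 1149, the offsets 1020 and 1085, and leaving out a library 79 to 1085 and 424 to 1830.

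The median log2 fold change of the 77 genes was -1.44 with upper-quartile factors, where that of all genes was -0.17, and -1.45 to -1.14 without each library. For the small subunit it was -1.46 with upper-quartile factors, -1.35 at 5 CPM, -1.37 with offsets, with or without the block, and -1.46 to -1.22 without each library. The median of all genes was -0.12 without a filter, -0.19 with offsets, -0.14 with offsets and block, and -0.17 to 0.13 without each library. The share of counts from ribosomal protein genes was 10.7% and 3.69% (untreated and PMA) with pseudogenes, 10.6% and 3.58% without mitochondrial genes in the total, and 9.07% and 3.76% with TMM-scaled sizes. Leaving out each library, the log2 fold change ranged from -1.45 to 0.62 for RPL41, -0.85 to 0.28 for RPL26L1 and -0.79 to 0.20 for RPL36AL, positive only without untreated replicate 2, and with length and GC offsets that of RPS27L was -0.12. The cause was not tested. The lowest count of RPS9 in a library was 412, and each group had 2 libraries.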
